A study of Homo sapiens with 6 samples.

Results

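Collagen genes were taken as all genes whose symbol has the form COL, a number, A and a chain digit, which gave 41 measured genes among 22466 on the array. Antisense and pseudogene symbols were left out, and each gene was read on its brightest probe set. The values come from 6 one-colour transcriptome arrays of SKOV3, an established human ovarian carcinoma cell line. The comparison was between 3 arrays of the SKOV3 pLKO-Vector stable line, which holds the empty hairpin vector and is labelled normal, and 3 arrays of the SKOV3 shSND1-#2 stable line, which carries a hairpin against SND1. Both lines grew in McCoy's 5A medium with 10% fetal bovine serum and without further treatment. The knockdown rests on a single hairpin, the labels do not say whether either line is 1 clone, and the first knockdown array has an extra, unexplained number in its title. SND1 encodes a protein with staphylococcal nuclease and tudor domains that acts in transcription and RNA metabolism.

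Collagens are extracellular matrix proteins whose glycine-rich chains wind around each other as a triple helix. Fibrillar collagens form the fibres of connective tissue, type IV collagens form the sheet-like network of basement membranes, and fibril-associated collagens coat and link fibres. Chains are hydroxylated and folded in the endoplasmic reticulum, trimmed after secretion and crosslinked by lysyl oxidases. Carcinoma cells lie on basement membrane, and most fibrillar collagen of a tumour is usually made by its fibroblasts.

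SND1 was lower on all 3 knockdown arrays (5.88, 5.70 and 5.99 on the log2 scale, against 8.83, 8.60 and 8.80 on the vector arrays; limma adjusted p = 1.3e-06), on a probe set that also covers SND1-IT1. Of 7 measured carcinoma epithelium markers, 6 lay above the background level in both groups. All 7 passed the threshold of the fit: EPCAM (7.59-fold), MUC1 (2.83-fold), KRT7, KRT19 and CLDN4 rose, and KRT8 (2.61-fold) and KRT18 (1.44-fold) fell. The background level is 6.28 on the log2 scale, the highest mean of 23 background control probe sets. Of 10 fibroblast markers only S100A4 lay above it, while PDGFRA, PDGFRB, THY1 and DCN lay under it on every array. Of these 10 markers, LUM and S100A4 rose and POSTN and PDPN fell, and the summed log2 level of the list was 44.8 to 45.1 on the vector arrays and 45.8 to 46.6 on the knockdown arrays. Of 8 endothelial markers 0 lay above the background level, and of 7 leukocyte markers only CD68 did. In these lists KDR fell by 0.47 and LAPTM5 rose by 1.31 on the log2 scale, both under that level, and the others did not pass.

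After SND1 knockdown 8 collagen genes were lower and 3 were higher. The largest difference was that of COL12A1, a fibril-associated collagen, which fell 3.89-fold. The basement membrane genes COL4A1 and COL4A2 fell 1.65-fold and 1.54-fold. COL8A1, COL5A2, COL5A1, COL1A1 and COL1A2 also fell, and COL4A3, COL4A4 and COL7A1 rose, all of these at values within the background range. The other 30 genes did not pass the threshold, an adjusted p of 0.05 from limma's 2-sided moderated test on the log2 values with adjustment over all 22466 genes. With n = 3 arrays a group and no statement that these were separate cultures, the p-values reflect the variation among these 6 arrays alone, and that variation may be technical. In RNA from whole cultures, fewer cells that express a gene and less RNA per cell cannot be told apart.

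The 8 lower genes are 19.5% of the collagen genes, where 16.1% of all genes fell, and the 3 higher genes are 7.32%, where 15.9% of all genes rose. In either direction 26.8% of the collagen genes passed, against 31.9% of all genes, so the number of changed collagen genes was near or under that of genes in general. Decreases of at least 1 on the log2 scale were found for 4 collagen genes (9.76%) and for 2.43% of all genes, while increases of that size were found for 1.84% of all genes and for no collagen gene (2 had an unadjusted limma p under 0.05 without passing, neither of that size). The median log2 difference was -0.0005 over the collagen genes and 0.003 over all genes. The arrays of the groups did not overlap for 15 collagen genes (36.6%), against 43.6% of all genes. The SD between arrays of a group ran from 0.003 to 0.189 over the collagen genes. With genes whose mean lay under the median of all values left out, 7 of 17 collagen genes fell and 4 rose. Of all 13964 genes then kept, 3563 fell and 3662 rose. The collagen share was then higher than that of all genes for decreases and for both directions together, and lower for increases.

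**Figure D1:**
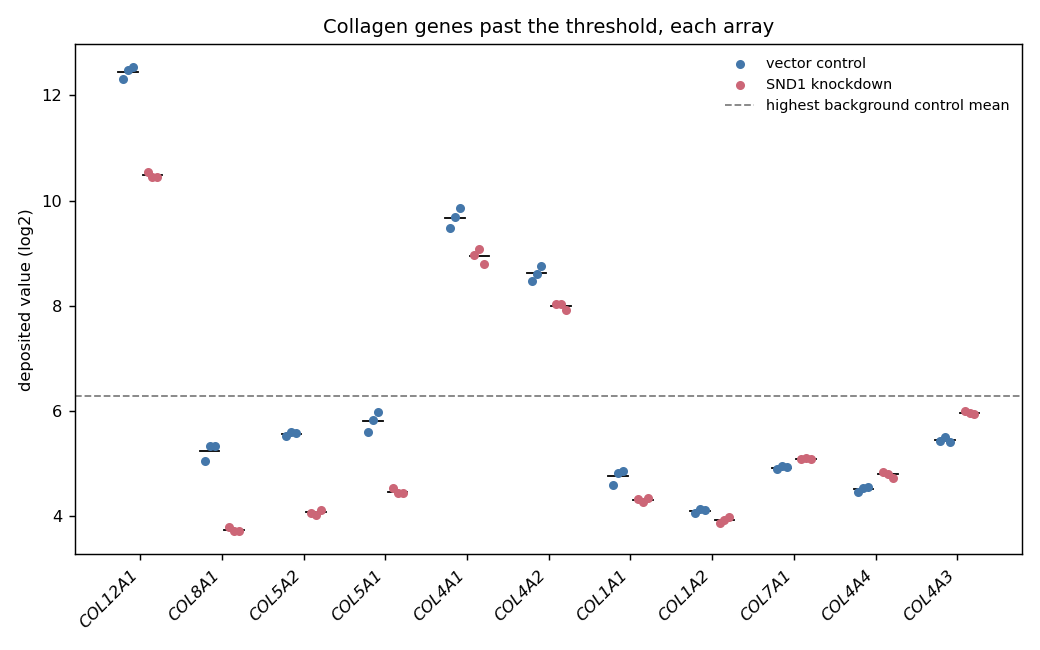
Deposited log2 value (y axis) on each of the 6 arrays for the 11 collagen genes past the threshold, ordered from the largest decrease to the largest increase. Points are arrays, short black lines are means of 3 arrays and the dashed line is the highest background control mean (6.28); the groups do not overlap for any of the 11 genes, and only COL12A1, COL4A1 and COL4A2 lie above the dashed line.

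Of the 6 type IV genes, 2 fell, 2 rose and 2 did not pass. Their products assemble into basement membrane networks, and the 6 genes lie as 3 head-to-head pairs, each pair read in opposite directions from neighbouring start sites. COL4A1 and COL4A2 encode the chains found in nearly all basement membranes, whereas COL4A3 and COL4A4 encode chains of specialised membranes such as that of the kidney glomerulus. Start sites lie 127 bases apart for COL4A1 and COL4A2, 419 for COL4A3 and COL4A4, and 380 for COL4A5 and the first listed start of COL4A6. The promoter windows of the pairs that passed the threshold are printed 5′ to 3′ on each gene's own strand, from 250 bases before to 50 bases after the start, as RefSeq gives them on GRCh38.p14, because the genes of each pair share part of this sequence. Capitals mark CCAAT or its reverse complement ATTGG in the first pair, and CACCTG or its reverse complement CAGGTG in the second.
COL4A1, chr13:110307108-110307407, minus strand: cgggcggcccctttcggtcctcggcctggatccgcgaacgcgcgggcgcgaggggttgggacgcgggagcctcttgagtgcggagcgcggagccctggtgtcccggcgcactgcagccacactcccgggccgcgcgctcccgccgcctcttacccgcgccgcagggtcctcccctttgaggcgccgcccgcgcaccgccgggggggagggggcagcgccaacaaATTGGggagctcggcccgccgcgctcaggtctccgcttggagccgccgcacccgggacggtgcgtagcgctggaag
COL4A2, chr13:110307034-110307333, plus strand: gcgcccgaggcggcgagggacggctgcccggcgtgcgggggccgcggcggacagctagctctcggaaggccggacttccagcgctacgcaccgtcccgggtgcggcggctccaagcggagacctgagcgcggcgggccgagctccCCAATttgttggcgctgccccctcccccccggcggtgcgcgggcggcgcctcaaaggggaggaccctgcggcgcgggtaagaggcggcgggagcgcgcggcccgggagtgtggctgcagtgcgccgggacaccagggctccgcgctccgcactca
COL4A3, chr2:227164374-227164673, plus strand: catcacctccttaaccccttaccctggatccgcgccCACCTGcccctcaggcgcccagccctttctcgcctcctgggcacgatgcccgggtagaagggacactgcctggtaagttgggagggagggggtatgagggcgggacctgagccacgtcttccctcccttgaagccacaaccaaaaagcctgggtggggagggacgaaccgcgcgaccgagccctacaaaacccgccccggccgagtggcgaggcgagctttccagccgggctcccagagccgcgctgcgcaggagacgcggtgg
COL4A4, chr2:227164156-227164455, minus strand: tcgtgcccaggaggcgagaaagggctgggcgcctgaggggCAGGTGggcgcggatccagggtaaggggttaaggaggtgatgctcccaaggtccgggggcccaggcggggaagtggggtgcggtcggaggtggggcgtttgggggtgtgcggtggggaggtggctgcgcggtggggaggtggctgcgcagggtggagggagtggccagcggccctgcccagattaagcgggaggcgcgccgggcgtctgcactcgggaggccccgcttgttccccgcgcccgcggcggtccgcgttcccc

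The windows of COL4A1 and COL4A2 overlap over 226 bases and hold the same CCAAT box, the letters bound by the factor NF-Y, 26 bases before the COL4A1 start and 105 before the COL4A2 start. They also share a GC box (GGGCGG or CCGCCC on either strand, the letters bound by SP1), 67 bases before the first start and 65 before the second, and COL4A1 has a further one 249 bases before its start. The windows of COL4A3 and COL4A4 overlap over 82 bases and hold the same CACCTG, an E-box of the kind bound by Snail and ZEB repressors, 214 bases before the COL4A3 start and 210 before the COL4A4 start. COL4A3 also holds 2 GC boxes, 117 and 23 bases before its start. On either strand CACCTG occurs in 20.6% of the 27305 promoter windows of this table, CCAAT in 35.7% and GGGCGG in 44.6%, and these motifs do not overlap each other in the printed windows. Among the 30 collagen genes with a window, 5 hold CACCTG (16.7%), 9 hold CCAAT (30.0%) and 18 hold GGGCGG (60.0%). These matches describe letters only and show no binding.

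COL4A1 lay at 9.48, 9.69 and 9.85 on the vector arrays and at 8.97, 9.08 and 8.79 on the knockdown arrays. Its difference was -0.73 ± 0.11 (SE, limma adjusted p = 0.0022). COL4A2 lay at 8.48, 8.61 and 8.77 on the vector arrays and at 8.03, 8.04 and 7.92 on the knockdown arrays, a difference of -0.62 ± 0.08 (SE, limma adjusted p = 0.0009). All knockdown arrays were below all vector arrays for both genes, and the 6 arrays stood in the same order for both. COL4A2-AS1, an antisense transcript of the COL4A2 locus that is not a collagen gene, fell by 0.34 on the log2 scale, at values under the background level unlike those of COL4A2 (limma adjusted p = 0.045).

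COL4A3 lay at 5.42, 5.51 and 5.40 on the vector arrays and at 6.00, 5.95 and 5.94 on the knockdown arrays, a difference of 0.52 ± 0.05 (SE, limma adjusted p = 0.0002). COL4A4 lay at 4.46, 4.53 and 4.56 on the vector arrays and at 4.84, 4.81 and 4.73 on the knockdown arrays, a difference of 0.28 ± 0.05 (SE, limma adjusted p = 0.0057). Every knockdown array was above every vector array for both genes, but all of these values lay under the background level of 6.28, so no fold is given. In the remaining pair, COL4A5 and COL4A6, the groups overlapped. COL4A5 lay at 3.46, 3.46 and 3.43 on the vector arrays and at 3.39, 3.41 and 3.43 on the knockdown arrays. COL4A6 lay at 3.43, 3.49 and 3.42 on the vector arrays and at 3.43, 3.37 and 3.46 on the knockdown arrays. Their differences of -0.04 and -0.03 did not pass (95% intervals -0.14 to 0.06 and -0.14 to 0.08).

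Nearby genes on the chromosome were read in the same fit, as the 5 nearest measured genes on each side in RefSeq order with collagen genes left out. Over all genes 15.9% rose and 16.1% fell, and whether a region changed with its collagen gene was not tested. Among the 9 around COL4A1, 1 rose and 2 fell (median log2 difference -0.09), COL4A2-AS1 being 1 of the latter. Among the 9 around COL4A3 and COL4A4, 2 rose and 1 fell (median 0.01). Around COL12A1, 6 of 10 rose and 1 fell (median 0.35). Around COL8A1, 4 of 10 fell and 1 rose (median -0.16), and around COL1A1, 3 of 10 fell (median -0.09). Around COL1A2, 3 rose and 2 fell (median 0.13), around COL5A2, 2 rose (median 0.09), and around COL5A1, 1 fell (median 0.045). Around COL7A1 none of 10 passed (limma, differences from -0.192 to 0.155).

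COL12A1 encodes a fibril-associated collagen that lies on type I fibrils and stiffens the matrix around them. It lay at 12.31, 12.48 and 12.54 on the vector arrays and at 10.54, 10.45 and 10.45 on the knockdown arrays. The difference was -1.96 ± 0.07 (SE, limma adjusted p = 2.0e-06), and it was far larger than the spread within either group (SD 0.12 and 0.05, n = 3). The other 9 fibril-associated genes, COL9A1, COL9A2, COL9A3, COL14A1, COL16A1, COL19A1, COL20A1, COL21A1 and COL22A1, did not pass and lay under the background level. Over all 10 genes of the class the median difference was 0.006.

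Of 10 measured fibrillar genes 4 fell, where 16.1% of all genes fell, and the other 6 did not pass. All 10 lay within the background range in both arms, so no call could be made for them with values floored at the background level. COL5A1 and COL5A2 encode type V chains, which take part in starting and sizing type I fibrils. COL5A2 lay at 5.52, 5.60 and 5.58 on the vector arrays and at 4.07, 4.03 and 4.13 on the knockdown arrays, a difference of -1.49 ± 0.05 (SE, limma adjusted p = 1.6e-06). COL5A1 lay at 5.61, 5.83 and 5.99 on the vector arrays and at 4.54, 4.43 and 4.43 on the knockdown arrays, a difference of -1.34 ± 0.10 (SE, limma adjusted p = 4.8e-05). The knockdown arrays were below the vector arrays without overlap for both, and both groups lay within the background range.

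COL1A1 and COL1A2 encode the chains of type I collagen, the main fibre protein of bone, skin and scar. COL1A1 lay at 4.60, 4.82 and 4.86 on the vector arrays and at 4.33, 4.27 and 4.35 on the knockdown arrays, a difference of -0.44 ± 0.08 (SE, limma adjusted p = 0.0037). COL1A2 lay at 4.06, 4.13 and 4.12 on the vector arrays and at 3.87, 3.92 and 3.98 on the knockdown arrays, a difference of -0.18 ± 0.05 (SE, limma adjusted p = 0.03). The groups did not overlap for either gene, and all values lay within the background range. The call of COL1A2 ended without the second or the third vector array (limma adjusted p = 0.1 and 0.097) and without the first or second knockdown array (0.076 and 0.072).

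Among the fibrillar genes that did not pass, COL27A1, a gene of cartilage fibrils, came nearest. It lay at 4.36, 4.47 and 4.49 on the vector arrays and at 4.58, 4.59 and 4.62 on the knockdown arrays, without overlap, and differed by 0.16 ± 0.05 (SE, limma adjusted p = 0.059). With genes whose mean lay under the median of all values left out, it passed (limma adjusted p = 0.04). Its second, dimmer probe set differed by 0.16 too, with values of 3.85, 3.68 and 3.69 on the vector arrays and 4.10, 3.77 and 3.83 on the knockdown arrays, which overlap. COL24A1 differed by 0.07, and COL2A1, COL5A3, COL11A1 and COL11A2 by -0.02 to 0.01. COL11A2 has 7 probe sets, 6 of them for alternative haplotypes of its region, and their differences ran from 0.006 to 0.013.

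**Figure D2:**
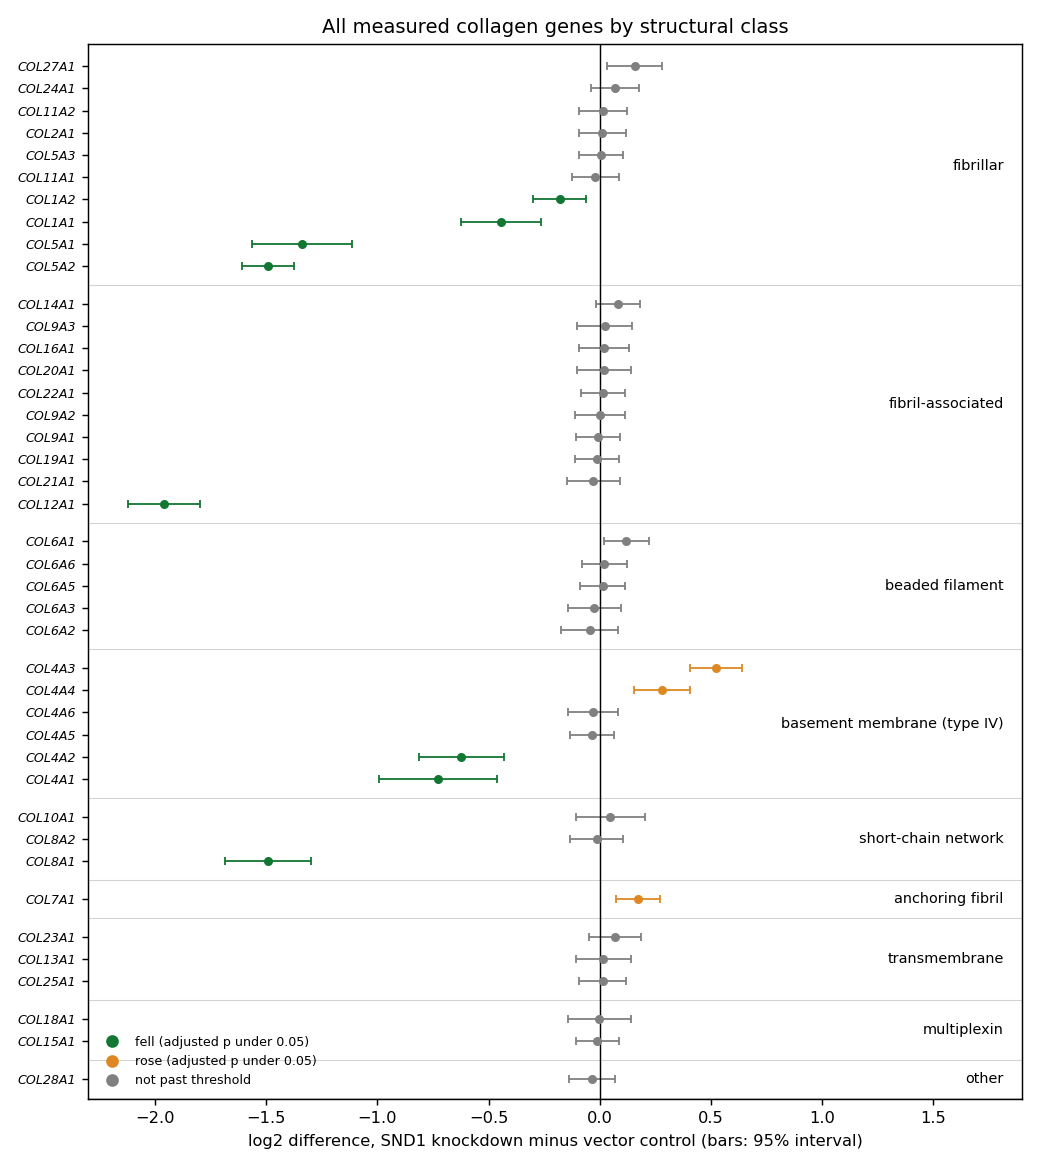
Log2 difference (x axis, SND1 knockdown minus vector control) of all 41 measured collagen genes, grouped by structural class, with 95% intervals from the limma fit as bars. Green marks the 8 genes that fell, orange the 3 that rose and grey the 30 that did not pass; COL12A1 stands at -1.96, and the grey genes lie between -0.05 and 0.16.

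COL8A1, which encodes a short-chain network collagen of vessel walls and of the cornea, lay at 5.06, 5.32 and 5.33 on the vector arrays. On the knockdown arrays it lay at 3.79, 3.72 and 3.71, a difference of -1.49 ± 0.08 (SE, limma adjusted p = 1.3e-05). The groups did not overlap, and both lay within the background range. The other network genes of this class, COL8A2 and COL10A1, differed by -0.01 and 0.05 and did not pass.

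COL7A1 encodes the collagen of the anchoring fibrils that fasten epithelium to the tissue below it. It lay at 4.90, 4.95 and 4.93 on the vector arrays and at 5.10, 5.11 and 5.09 on the knockdown arrays, a difference of 0.17 ± 0.04 (SE, limma adjusted p = 0.018) within the background range. Its call ended without the first or the third vector array (limma adjusted p = 0.065 and 0.058) and without the second knockdown array (0.051).

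The beaded filament genes of type VI collagen, which links cells to the surrounding matrix, did not pass. COL6A1 came nearest, at 4.57, 4.58 and 4.62 on the vector arrays and 4.70, 4.72 and 4.71 on the knockdown arrays, a difference of 0.12 ± 0.04 (SE, limma adjusted p = 0.078) without overlap. COL6A2 is its neighbour on chromosome 21 and supplies another chain of the same molecule. It lay at 5.05, 5.02 and 5.09 on the vector arrays and at 5.09, 5.01 and 4.94 on the knockdown arrays, which overlap. COL6A3, COL6A5 and COL6A6 differed by -0.03 to 0.02.

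COL18A1 was the only collagen gene above the background level in both groups that did not pass. It encodes a basement membrane collagen whose end fragment is known as endostatin. Its values were 7.02, 6.90 and 7.02 on the vector arrays and 7.05, 6.99 and 6.89 on the knockdown arrays. The groups overlapped, and the 95% interval of the difference ran from -0.15 to 0.14. COL15A1, the other multiplexin, differed by -0.01 within the background range. The transmembrane genes COL13A1, COL23A1 and COL25A1 differed by 0.01 to 0.07, and COL28A1 by -0.04.

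For the 29 genes that did not pass and lay within the background range, the values of all arrays ran from 3.37 to 5.09. No 95% interval of the 30 genes that did not pass reached beyond 0.28 in size. At these levels a small or absent transcript cannot be told from background, so a difference near 0 there does not show that expression was alike. Besides COL27A1 and COL6A1, the groups did not overlap for COL14A1 and COL24A1 among the genes that did not pass. The genes COL3A1 and COL26A1 were not counted, because their probe sets carry a second symbol. The probe set labelled COL3A1 and MIR3606 differed by -0.10, and the one labelled with the symbols COL26A1 and EMID2 by -0.04. Both lay within the background range, and neither passed the threshold when such probe sets were added. COL17A1 was not analysed here.

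**Figure D3:**
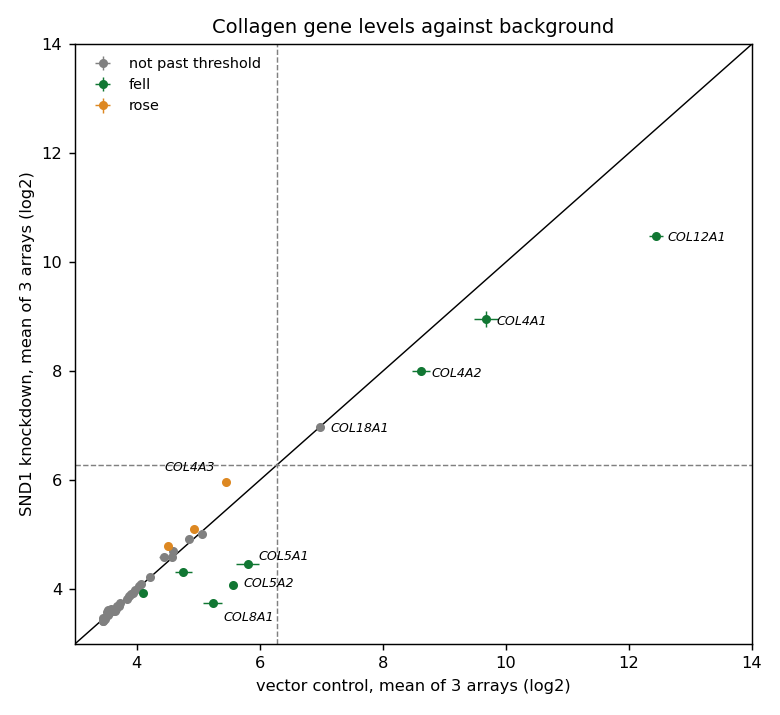
Mean log2 value of each of the 41 collagen genes on the vector arrays (x axis) and on the knockdown arrays (y axis), with SD over 3 arrays as bars. The solid line marks equal values and the dashed lines the highest background control mean (6.28): COL12A1, COL4A1, COL4A2 and COL18A1 lie above it in both groups, and the other 37 genes lie below it in both.

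The first vector array was the lowest of the 3 vector arrays for all 8 collagen genes that fell, and thus nearest to the knockdown arrays. Over all 3608 genes that fell it was the lowest for 43.8%. Without it, 8 collagen genes fell and 2 rose, COL7A1 being the call that ended. Over all measured genes it was the lowest for 34.8%.

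Genes that modify and fold collagen chains were mostly lower. Of 19 measured, 15 fell and 1 rose, 84.2% in all against 31.9% of all genes, with a median log2 difference of -0.32. The 31.9% covers many dim genes, whereas 14 of these 19 lay above the background level in at least 1 group. With values under that level raised to it, 12 genes of the list fell and 1 rose. Of the 9299 genes that could then be tested, 2630 fell and 3032 rose. P3H2 encodes a prolyl hydroxylase that acts on type IV collagen. It fell 3.26-fold, from 12.12, 12.37 and 12.30 on the vector arrays to 10.54, 10.58 and 10.57 on the knockdown arrays (limma adjusted p = 3.9e-06). P3H1, which hydroxylates fibrillar chains in a complex with CRTAP, fell 2.09-fold (limma adjusted p = 2.1e-05). The lysyl hydroxylase gene PLOD2 fell 1.86-fold and P4HA1, a subunit of the prolyl hydroxylase needed for a stable helix, fell 1.69-fold. PLOD1, the gene that rose, was named after its values were seen, and its call (1.19-fold, limma adjusted p = 0.019) ended without the first or second vector array or the second or the third knockdown array.

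Lysyl oxidases crosslink collagen outside the cell. Of 6 crosslinking genes 3 fell and the other 3 did not pass (50% in all against 31.9% of all genes, median -0.53). Here too the 31.9% covers many dim genes, whereas 4 of the 6 lay above the background level in at least 1 group. LOXL1 fell 6.31-fold, from 9.73, 9.84 and 9.98 on the vector arrays to 7.23, 7.23 and 7.11 on the knockdown arrays (limma adjusted p = 8.5e-07). LOXL2, whose product also crosslinks type IV collagen, fell 5.44-fold (limma adjusted p = 6.3e-06), and LOX fell at least 1.2-fold, its knockdown values lying under the background level. LOXL4 differed by -0.22 under the background level (limma adjusted p = 0.059), and it passed after repeated quantile normalization (0.044) and with dim genes left out (0.039).

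Of 14 genes for export and propeptide cleavage 5 rose and 5 fell (71.4% in all against 31.9% of all genes, median -0.09). The 31.9% covers many dim genes, whereas 7 of these 14 lay above the background level in at least 1 group. With values under that level raised to it, 3 genes of the list rose and 2 fell. Of the 9299 genes that could then be tested, 3032 rose and 2630 fell. SEC23A, a coat protein of the vesicles that carry procollagen, fell 1.82-fold (limma adjusted p = 1.2e-04). The procollagen proteinase genes TLL1 and TLL2 and the enhancer gene PCOLCE2 fell by 0.41, 0.36 and 0.36 on the log2 scale, all under the background level. The genes that rose were MIA2 (1.25-fold), MIA3 (1.14-fold) and SEC24D (1.12-fold), which act in procollagen export and lay above the background level, and the proteinase genes ADAMTS3 and ADAMTS14, which lay under it. These 5 were named after their values were seen. Leaving out any 1 array reduced the number that rose from 5 to between 1 and 2.

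Among 11 collagen receptor genes 1 rose and 2 fell (27.3% in all against 31.9% of all genes, median -0.02). The uptake receptor gene MRC2 fell 1.56-fold, from 7.595, 7.538 and 7.619 to 7.001, 6.940 and 6.884 (limma adjusted p = 8.5e-05). DDR1, a collagen-activated kinase of epithelial cells, rose at least 1.28-fold from vector values under the background level (difference 0.65, limma adjusted p = 0.0013). The integrin gene ITGB1 fell 1.16-fold (limma adjusted p = 0.012), a call that ended without the third vector array (limma adjusted p = 0.052) and with the mean over its probe sets (0.22). DDR2 differed by -0.22 within the background range (limma adjusted p = 0.077), and it passed without the first vector array (0.0098).

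Of 11 genes that degrade collagen 5 fell and 1 rose (54.5% in all against 31.9% of all genes, median -0.07). The 31.9% covers many dim genes, and 5 of these 11 lay above the background level in at least 1 group. With values under that level raised to it, 4 genes of the list fell and 1 rose. Of the 9299 genes that could then be tested, 2630 fell and 3032 rose. The interstitial collagenase gene MMP1 fell 5.56-fold and lay at 13.25, 13.13 and 13.10 on the vector arrays and at 10.52, 10.81 and 10.72 on the knockdown arrays. MMP13, another collagenase gene, fell by 1.42 on the log2 scale under the background level, the membrane protease gene MMP16 fell at least 2.31-fold and the cathepsin gene CTSL fell 3.37-fold. MMP2, which cleaves type IV collagen and denatured chains, was the gene that rose (1.34-fold, limma adjusted p = 0.0086) and was named after its values were seen. Of 13 collagen-binding matrix genes 6 fell and 1 rose (53.8% in all against 31.9% of all genes, median -0.15). Of these 13, 5 lay above the background level in at least 1 group, and with the same floor 4 fell and 0 rose. THBS1 and NID2, which encode thrombospondin-1 and nidogen-2, lay above the background level in both groups and fell 84.9-fold and 3.67-fold. FN1, the fibronectin gene, fell at least 4.42-fold, its knockdown values lying under that level. LUM, which encodes the fibril-binding proteoglycan lumican, rose by 1.85 within the background range.

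**Figure D4:**
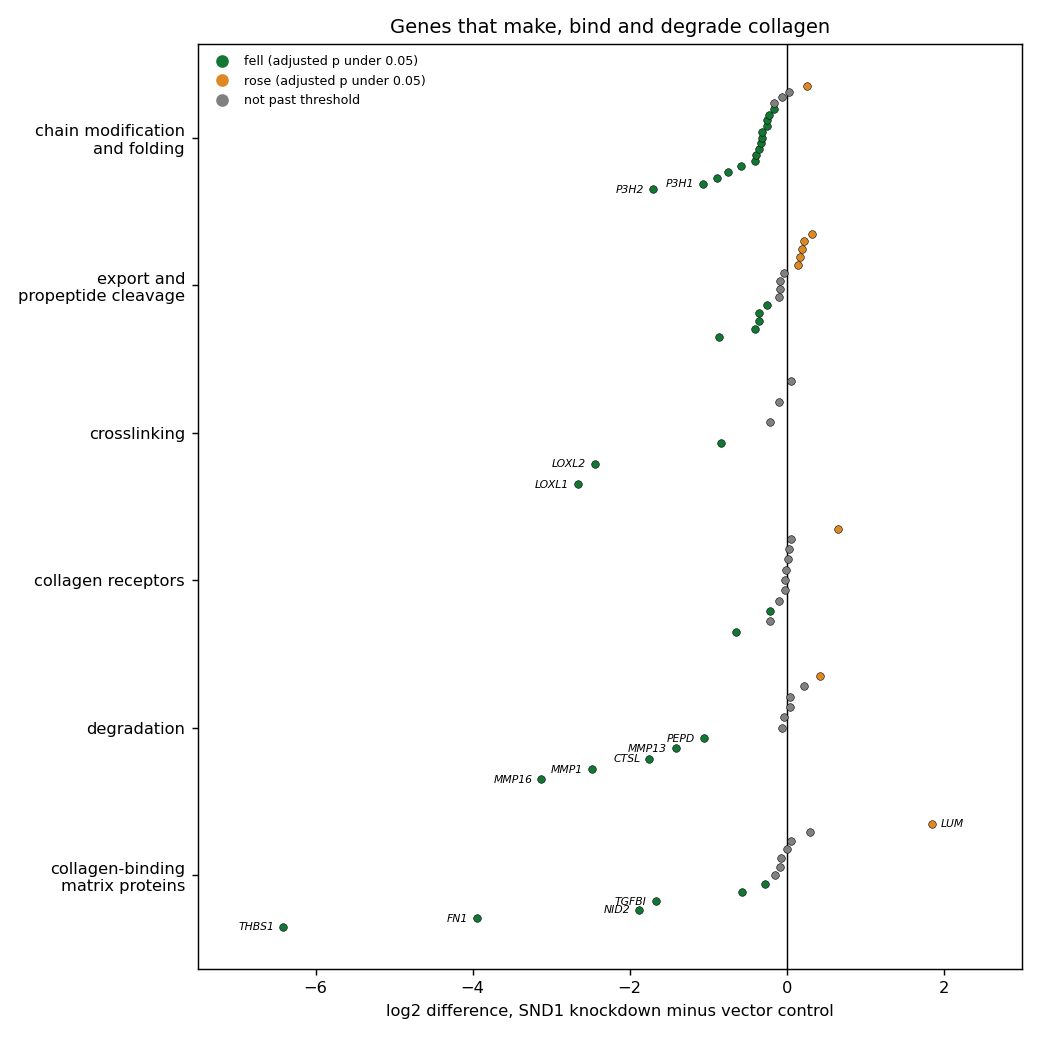
Log2 difference (x axis, SND1 knockdown minus vector control) of each measured gene in 6 lists (y axis) of genes that modify, export, crosslink, bind or degrade collagen. Each point is a gene, green if it fell, orange if it rose and grey if it did not pass; 15 of 19 chain modification and folding genes are green, and the genes past 1 in size are named.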

How the data were processed

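The authors deposited log2 expression values for each probe set. RMA, which corrects background, normalizes by quantiles and summarises probes, is named without a version in the submitters' processing notes. Array medians ran from 4.13 to 4.19. Of 70523 probe sets 744 had a mean over 16, more than a 16-bit scan can give on the log2 scale, so the variant of RMA is not known and fold sizes depend on its scale. The labels give no batch, and scanner files with scan times or detection calls were not used here. The number of arrays limits the precision.

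In the platform annotation 23781 probe sets carried 1 symbol, 1543 several and 45199 none. Symbols were checked through Entrez identifiers for 21497 probe sets and needed no change. A gene was read on its brightest probe set with 1 symbol, and SND1 was kept although its probe set also names SND1-IT1. The 2 groups were compared in limma 3.58.1 (lmFit, then eBayes; R 4.3.3) with no covariate and all genes kept. The Benjamini-Hochberg adjustment ran over 22466 genes, and the fit was tested on simulated data. Folds are given only above 6.28, the highest of 23 background control means (median 3.11), and as "at least" where 1 group lay under it. Members, gene lists and tests were chosen with earlier results of these data known. The rule named collagen genes past the threshold, with values on every array for those differing by at least 1 and for the type IV pairs, and up to 4 genes of each list with the smallest p. Array values of other collagen genes were added after they were seen. Across genes, correlations were 0.9981 to 0.9987 within groups and 0.9844 to 0.9861 between them. Alternatives were a replicate block, renewed quantile normalization, a filter on dim genes, a background floor, the mean over probe sets, probe sets with several symbols, an intensity trend and leaving out each array.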

Additional observations from a re-analysis of the deposited data

How the results depend on the processing

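Under all 13 alternatives COL12A1, COL4A1 and COL4A2 kept their direction and their call (highest limma adjusted p 6.6e-05, 0.011 and 0.005). COL8A1, COL5A2, COL5A1, COL1A1, COL4A3 and COL4A4 did so under the 12 alternatives that gave them a value. The exception was the floor that raises values under 6.28 to that level, by which all collagen genes but 4 have equal values on every array and cannot be tested. With that floor 3 collagen genes fell and 0 rose (limma, 0 with an unadjusted p under 0.05 and higher), 3 export and cleavage genes rose and 2 fell, and 0 collagen-binding genes rose, since LUM lay under the floor. Leaving out 1 array gave 7 to 8 lower and 2 to 3 higher collagen genes, 0 to 1 higher chain modification genes, 1 to 2 higher export genes and 1 to 3 lower receptor genes. The filter on dim genes kept 17 collagen genes, without COL1A2, and left 3 lower export genes. With the mean over probe sets 1 receptor gene fell.

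The labels do not say whether same-numbered arrays were paired. Deviations of same-numbered arrays from their group means correlated at -0.02, -0.036 and -0.062 across genes. These values show no shared effect, but with so few arrays they cannot settle whether there was a pairing. With the replicate block 7 collagen genes fell and 2 rose, COL1A2 and COL7A1 no longer passing (limma adjusted p = 0.063 and 0.07), and 1 export gene rose. No alternative reversed a result. Signal limits most collagen values here, since 37 of 41 genes lay under the background level in both groups. Many other genes lay there too, but a smaller share of them. Of all 22466 genes 9299 had an array above that level, where 4 of the 41 collagen genes did.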
